A study of Mus musculus with 2 samples.

Results

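Erythroid cells of the liver tumours were taken as cell barcodes with at most 20% mitochondrial transcripts in which the 4 adult globin genes Hba-a1, Hba-a2, Hbb-bs and Hbb-bt together held at least 20% of the unique molecular identifiers (UMIs, the tags that count captured RNA molecules). This rule selected 282 of 16410 kept barcodes, 207 of 6097 in the NRAS.MYC.ND library and 75 of 10313 in the AKT1.MYC library. Those with at least 3000 UMIs, 71 in the NRAS.MYC.ND library and 0 in that of AKT1.MYC, are called deep erythroid cells, and the other 136 and 75 are called low-depth erythroid cells. Because the groups were chosen by globin share and by depth, differences in either measure are descriptions, and so is any contrast between an erythroid group and the other kept cells.

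Both libraries came from tumour tissue in livers of C57BL/6 mice, taken 14 weeks after hydrodynamic tail vein injection, a fast injection of a large volume that carries plasmids into the liver. NRAS.MYC.ND mice received plasmids for human N-Ras (19 µg) and human c-Myc (1 µg) with 2 µg of Sleeping Beauty transposase plasmid, which inserts the oncogenes into the genome, and AKT1.MYC mice received Akt1 (10 µg, species not given), human c-Myc (10 µg) and 5 µg of transposase plasmid. c-Myc and the transposase are thus shared by both models, and the promoters that drive the oncogenes, the number, sex and age of the mice and whether animals were pooled are not given by the labels. The digested tissue was enriched for live cells before capture, and a step to lyse red cells is not named in the protocol. With 1 library per model, a difference between models has no replicate check and no test: it cannot be told apart from a difference between the 2 preparations, and every interval below is a 95% interval that covers counting error only.

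Red cells form from progenitors that divide several times under the control of transcription factors such as GATA1 and KLF1 while globin RNA accumulates, after which the erythroblast condenses and expels its nucleus. The reticulocyte that remains still holds globin and a shrinking set of other RNAs and loses them as it matures. In the adult mouse this takes place in bone marrow and spleen, and the liver, the main site in the fetus, can host it again under stress. Malat1 is a long RNA held in the nucleus, so its level separates barcodes with abundant nuclear RNA from those without.

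The promoters of the 4 globin genes that define the cells are shown because the copies of each pair are alike to different degrees, and the balance of the copies is described below. The sequences are the 120 bases before the transcription start in RefSeq's annotation of mouse GRCm38.p6, read 5′ to 3′ on the gene's strand. Hba-a1 (chr11:32283552-32283671, plus strand) and Hba-a2 (chr11:32296372-32296491, plus strand) encode α globin, and Hbb-bs (chr7:103827929-103828048, minus strand) and Hbb-bt (chr7:103813924-103814043, minus strand) encode adult β globin. Capitals mark the TATA box core TATAA, the CCAAT box with the letters CCAAT, the core CACCC of the motif that KLF1 binds and the form GATAA of the GATA motif, each searched on both strands.
Hba-a1: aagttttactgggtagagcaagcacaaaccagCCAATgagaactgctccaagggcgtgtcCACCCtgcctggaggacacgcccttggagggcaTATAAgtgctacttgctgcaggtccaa
Hba-a2: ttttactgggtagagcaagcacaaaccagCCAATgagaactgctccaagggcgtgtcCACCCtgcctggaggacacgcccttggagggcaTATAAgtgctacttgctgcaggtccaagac
Hbb-bs: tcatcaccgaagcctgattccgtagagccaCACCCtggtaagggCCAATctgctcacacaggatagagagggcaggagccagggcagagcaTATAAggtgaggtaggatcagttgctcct
Hbb-bt: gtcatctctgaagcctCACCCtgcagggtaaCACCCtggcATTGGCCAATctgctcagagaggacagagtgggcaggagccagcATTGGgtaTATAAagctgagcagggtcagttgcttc
All 4 promoters hold a TATA box core, a CCAAT box and a CACCC core, and GATAA is in none of the 4 windows. Of 32851 mouse promoters cut to the same 120 bases, 11.8% held the TATA box core, 21.3% the CCAAT box, 31.7% the CACCC core and 10.5% the GATA motif. In Hbb-bt the CACCC core occurs at 104 to 100 and at 89 to 85 bases before the start, and the CCAAT box read on the opposite strand adds matches, in capitals as well, at 80 to 76 and 36 to 32. A match describes the letters and is not shown to be a bound site. The 2 α globin promoters were identical at 120 of 120 bases when shifted by 3 bases, and the 2 β globin promoters at 89 of 120 (74.2%). How the deposited counts divide reads between the copies of a pair was not tested.

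The NRAS.MYC.ND library held 42416125 UMIs over 6312 barcodes and the AKT1.MYC library 64516171 over 10766, with medians of 4240 and 1866 UMIs per kept barcode. Both libraries held many deep cells of all types, with at least 3000 UMIs in 3769 kept barcodes of NRAS.MYC.ND against 3944 in AKT1.MYC. The libraries shared 17 barcode sequences, 0 of which were erythroid. Scrublet, a doublet caller, marked 0.0328% and 0% of kept barcodes with its automatic threshold and so had not worked. Doublets were therefore not removed. Among deep cells, 12 with many markers of another type were set apart for the comparison within deep cells, and low-depth cells were not sorted in this way. In the other kept cells the 4 globins made up 0.102% of the UMIs of NRAS.MYC.ND and 0.0158% of those of AKT1.MYC.

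Erythroid cells made up 3.40% of kept barcodes in NRAS.MYC.ND (95% exact interval 2.95 to 3.88%) and 0.727% in AKT1.MYC (0.572 to 0.911%). Deep cells were 34.3% of the erythroid cells of NRAS.MYC.ND (27.9 to 41.2%) and 0 of the 75 in AKT1.MYC. A count of 0 is taken to allow up to 3 cells, here 4% of the erythroid cells and 0.0291% of the kept barcodes of AKT1.MYC, and the exact interval of 0 of 75 ends at 4.80%. The deepest erythroid barcode held 52553 UMIs in NRAS.MYC.ND, and that of AKT1.MYC held 2507. The globin share of the low-depth cells lay between 53.1 and 92.2% with a median of 78.5% in NRAS.MYC.ND, and between 20.2 and 64.1% with a median of 37.2% in AKT1.MYC. The 20% limit fell into a thin stretch of the NRAS.MYC.ND distribution, with 5 members between 20 and 30% and 9 barcodes between 10 and 20%, and into a dense one in AKT1.MYC, with 25 members and 29 barcodes in the same ranges. The members nearest to the limit had 20.6 and 20.2% globin and the nearest barcodes outside it 18.2 and 18.7%.

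**Figure D1:**
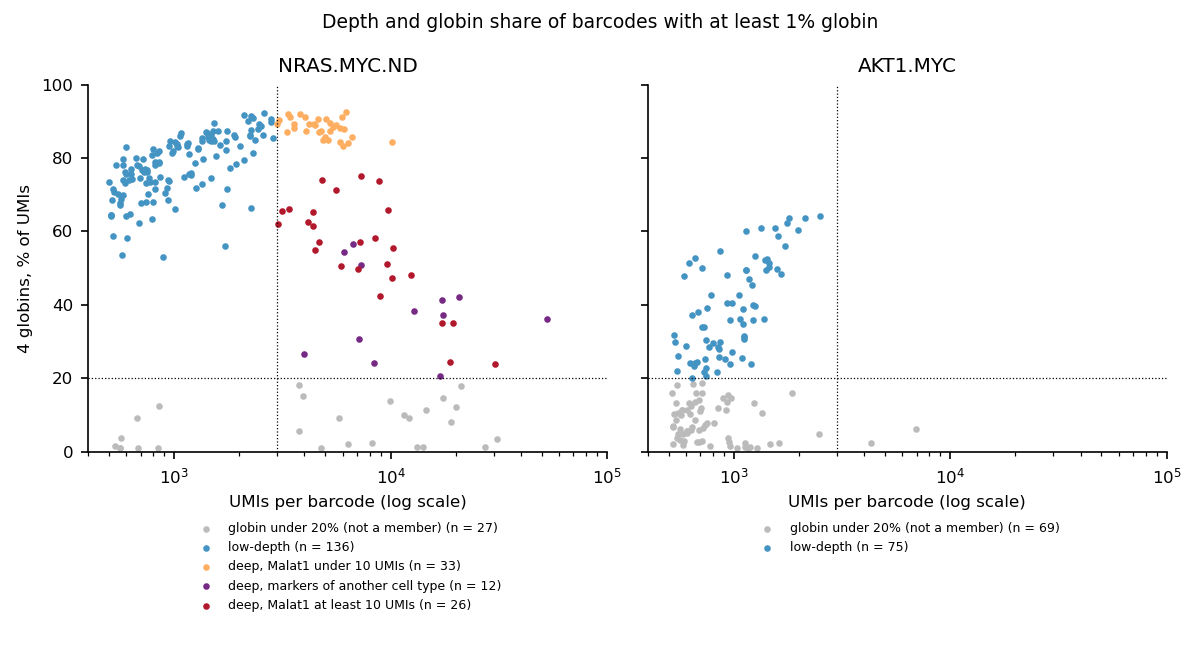
Each point is a barcode with at least 1% globin, placed by its UMIs (x axis, log scale) and by the share of the 4 globins in its UMIs (y axis, %), with dotted lines at 3000 UMIs and 20% globin. In NRAS.MYC.ND the deep cells form 1 set above 83.4% globin and 1 between 20.6 and 75.1%, and no AKT1.MYC member passes 3000 UMIs.

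The label was checked on genes that the rule did not use. Levels here are counts per 1000000 (CPM) of a group's summed UMIs other than the 4 globins, so that globin itself does not set the scale. A gene is measured in a comparison with at least 10 UMIs over both groups, is called at a ratio of 2-fold or more (a count of 0 is put at 3), and is called clear of counting error where its interval leaves out no difference. In deep cells against the other kept cells of NRAS.MYC.ND, 68 of 84 measured genes of 6 erythroid lists were called higher, all 68 clear of counting error, and 1 lower, with a median log2 ratio of 4.68. Over all 18131 genes measured, 11.5% were called higher and 15.7% lower, with a median of -0.25. The deep group is thus erythroid by genes outside the rule, and its 15 highest ratios by the naming rule include Slfn14, Hbq1b, Slc4a1, Trim10, Epb42, Rhag, Hemgn and Alas2.

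The low-depth cells carried fewer of these genes. In NRAS.MYC.ND, 51 of 83 measured genes of the 6 lists were called higher than in the other cells (41 clear of counting error) and 5 lower, against 8.37% higher and 4.78% lower over 18097 genes. In AKT1.MYC, 33 of 76 were called higher (26 clear) and 2 lower, against 8.16% and 3.38% over 18853 genes. Alas2, the enzyme of the first step of erythroid haem synthesis, had a UMI in 124 of 136 low-depth cells of NRAS.MYC.ND (91.2%) and 59 of 75 of AKT1.MYC (78.7%), against 1.58% and 0.606% of the other cells, although these are deeper. Slc4a1, the band 3 anion exchanger of the red cell membrane, had one in 13.2% and 9.33% of them, against 0.611% and 0.0195%. Of 11 erythroid genes outside the rule, Alas2 and Slc4a1 among them, low-depth cells showed a median of 1 in each library. At least 2 were seen in 48 of 136 low-depth cells of NRAS.MYC.ND and in 17 of 75 of AKT1.MYC. Kit, the stem cell factor receptor of early progenitors, was listed at 0 UMIs in every erythroid group except the 12 cells with markers of another type described next, which held 3. Ahsp, the α globin chaperone, was not analysed here.

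The deep cells fell into sets that differ in nuclear RNA. Of 71, 33 had at most 8 Malat1 UMIs and 38 had at least 19, and a limit of 10, chosen after seeing the counts, lies in the gap between 8 and 19. Among the 38, 12 also carried at least 5 T and NK cell, endothelial or neutrophil genes or at least 4 genes of macrophages that take up red cells, with up to 605 UMIs of the complement genes C1qa to C1qc. This left 26 Malat1-rich cells and 33 Malat1-poor cells below these limits, which does not make them free of such markers: at least 3 macrophage genes were seen in 19 of the 26, and up to 29 Ccl5 UMIs, a T and NK cell gene, in 1 cell. The Malat1-rich cells had a median of 111.5 Malat1 UMIs (19 to 335), 1180.5 genes and 57.0% globin, and the Malat1-poor cells 2 Malat1 UMIs (0 to 8), 304 genes and 88.3% globin. Globin UMIs per cell were alike, with medians of 4069 and 4183, whereas the other UMIs had medians of 3016.5 and 522. Of the deep cells, which the rule takes as nucleated, 33 of 71 therefore show little of this nuclear RNA. Malat1 stood at 4557 CPM in the Malat1-poor and 26109 CPM in the Malat1-rich cells, a difference that the split itself used.

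**Figure D2:**
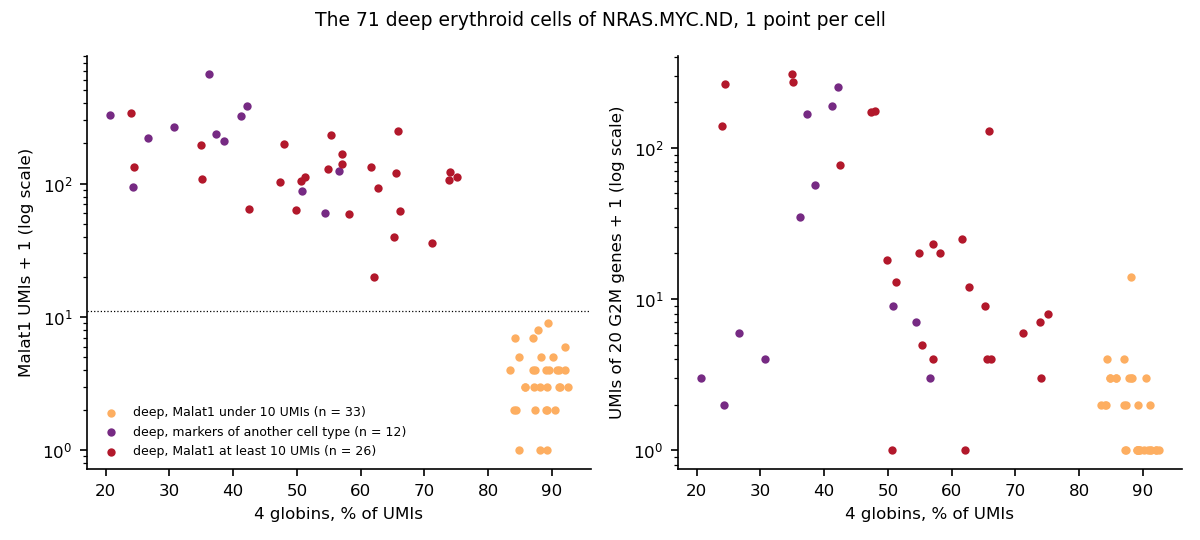
Each point is 1 of the 71 deep erythroid cells of NRAS.MYC.ND, with its globin share (x axis, %) against its Malat1 UMIs and against its UMIs of 20 G2 and M phase genes (y axes, log scales). The 33 Malat1-poor cells sit above 83.4% globin with at most 8 Malat1 UMIs, and the 26 Malat1-rich cells between 23.9 and 75.1%.

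Erythroid transcription factors had 494 UMIs in the Malat1-rich cells, where 24 of 26 cells showed at least 3 of the 14 genes, and 19 UMIs of 6 genes in the Malat1-poor cells, where 1 of 33 cells did. Gata1, a master regulator of red cell formation, had 24 UMIs in the Malat1-rich cells (195 CPM, in 9 of 26 cells, 34.6%) and 0 in 33 Malat1-poor, 136 NRAS.MYC.ND low-depth and 75 AKT1.MYC low-depth cells. Klf1, which switches on adult β globin, had 23 UMIs (187 CPM, in 7 of 26 cells, 26.9%) and again 0 in those 3 groups. At least one UMI of either gene was found in 12 of 26 Malat1-rich cells and in 4 of the 12 cells with markers of another type. Gata1 stood at 0.412 and Klf1 at 0.655 CPM in the other kept cells of NRAS.MYC.ND. The limit that a count of 0 allows in the Malat1-poor cells is 152 CPM for each, close to the Malat1-rich levels, so on this scale their absence there is not a detectable difference. Per globin UMI, of which both sets held similar numbers per cell, Gata1 was at least 3.37 and Klf1 at least 3.31 higher on the log2 scale in Malat1-rich cells. The median over all 2146 measured genes on that scale was 3.18, with 95.3% called higher. These bounds therefore do not set Gata1 and Klf1 apart from the other genes.

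Between the Malat1-rich and Malat1-poor cells 27.1% of 2146 measured genes were called higher in the first and 11.9% lower, with a median log2 ratio of 0.56. Of 76 measured genes of the 6 erythroid lists, 32 were called higher (22 clear of counting error) and 17 lower (17 clear), and the lists went different ways. Terminal maturation and enucleation genes were low in the Malat1-rich cells, with 9 of 16 called lower, all clear, and 4 higher, and a median 2.50 below that of all genes on the log2 scale. Membrane skeleton and blood group genes were high, with 11 of 18 called higher (7 clear) and 1 lower, and a median 0.65 above that of all genes. Of these 18, Kel and Icam4 had 0 UMIs in Malat1-poor cells, put at 3, and were measured through Malat1-rich cells alone. A common scale shifts every gene that keeps a ratio by 1 constant, but genes with a count of 0 can lose theirs. The distances above therefore hold for the non-globin scale. Per globin UMI the median of all genes moved from 0.56 to 3.18, while Alas2 moved from -2.75 to 0.26. The direction of a single gene can turn with the scale. Per 1000 globin UMIs, 95.3% of the same genes were called higher in Malat1-rich cells and 0.0466% lower.

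Bpgm, which makes the 2,3-bisphosphoglycerate that lowers the oxygen affinity of haemoglobin, stood at 1186 CPM in Malat1-rich cells, 15545 in Malat1-poor and 9131 in NRAS.MYC.ND low-depth cells, a log2 ratio of -3.71 (-4.01 to -3.42) of the first over the second. It was lower in Malat1-rich cells per globin UMI too, at -0.70. Alas2 stood at 3175, 21368 and 17603 CPM, a log2 ratio of -2.75, and Ube2l6, a ubiquitin and ISG15 conjugating enzyme, at 1502, 10735 and 7594 CPM. Mkrn1, a ubiquitin ligase, stood at 3135, 14431 and 4613 CPM. For Alas2, Ube2l6 and Mkrn1 the direction turned per globin UMI, to 0.26, 0.17 and 0.81, so that what they show is a larger share of the RNA other than globin in Malat1-poor cells.

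Other genes were higher in Malat1-rich cells on the non-globin scale. They were higher per globin UMI too, but so were nearly all genes (95.3% called higher), so the second scale adds no support. Cpox, a late enzyme of haem synthesis, stood at 2583 CPM against 658, a log2 ratio of 1.97 (1.18 to 2.90), so that the haem genes did not move as 1 block. Rhd, a Rh blood group protein, had 2087 against 50.6 CPM, which is 5.37 on the log2 scale and rests on 257 UMIs and 1 UMI. Hemgn, a nuclear regulator of erythroid differentiation, had 1454 against 101 CPM, and Pim1, a survival kinase, 3346 against 203, with few UMIs of either gene in the Malat1-poor cells. Tfrc, the transferrin receptor through which erythroblasts take up iron, had 520 against 50.6 CPM, or 3.36 (0.83 to 8.69) on the log2 scale, with 1 UMI in the Malat1-poor cells. Car1, a carbonic anhydrase, had 156 UMIs against 0, which makes it at least 8.34-fold higher. Its relative Car2 stood at 12685 against 9823 CPM and Prdx2, a peroxide scavenger, at 11329 against 11798, both short of a 2-fold ratio.

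**Figure D3:**
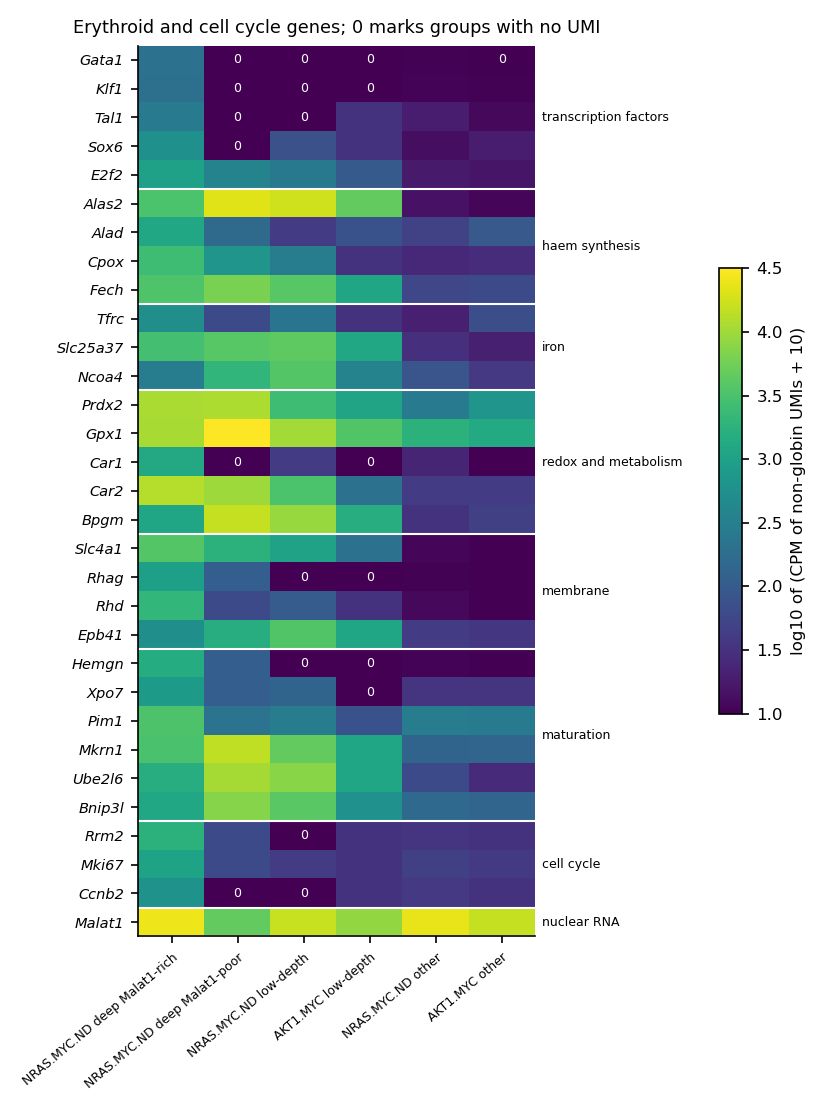
Colour gives the level of named erythroid and cell cycle genes as log10 of (CPM of non-globin UMIs + 10) in 4 erythroid groups and in the other kept cells of each library; a 0 marks a group without a UMI. Gata1 and Klf1 are listed above 0 among the erythroid columns in the Malat1-rich cells alone, while Alas2 and Bpgm are highest in the Malat1-poor cells.

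G2 and M phase genes were higher in the Malat1-rich cells. Of 20 measured G2 and M phase genes, 13 were called higher there than in Malat1-poor cells (11 clear of counting error), with a median 1.31 above that of all genes on the log2 scale. In the Malat1-poor cells 13 of the 20 had 0 UMIs, put at 3, so these were measured through the Malat1-rich cells alone and the count and median are descriptions. Summed over the list there were 1694 UMIs (13757 CPM) and 42 UMIs (2127 CPM). S phase genes had 5 of 16 called higher and 0 lower, a share close to the 27.1% over all genes, with a median 0.28 above that of all genes. Mki67, a marker of dividing cells, stood at 1048 against 50.6 CPM, and Rrm2, a subunit of the enzyme that makes deoxyribonucleotides for DNA synthesis, at 1787 against 50.6. For each gene the level in the Malat1-poor cells rests on 1 UMI. Because depth sets how many genes a cell can show, each cell was thinned to 422 non-globin UMIs. At that depth 12 of 26 Malat1-rich cells had at least 2 of the G2 and M genes (46.2%, 26.6 to 66.6%) against 3 of 26 Malat1-poor cells deep enough to be thinned (11.5%), and 7 of 26 (26.9%) against 0 of 26 had at least 2 of 20 S phase genes. By the limit of 3 cells the 0 of 26 allows a share of up to 11.5%, and its exact interval ends at 13.2%. Without thinning the shares were 88.5% and 12.1% for G2 and M and 61.5% and 0% for S phase. Of the low-depth cells, 2 of 66 in AKT1.MYC passed for each phase (3.03%), and 130 of 136 in NRAS.MYC.ND were too shallow to be thinned. Among Malat1-rich cells, 19 of 26 had at least 5 G2 and M UMIs, and their globin share had a median of 54.9% (23.9 to 75.1%) against 62.0% (50.7 to 74.1%) in the other 7. The first set was also deeper, with medians of 8810 against 4824 UMIs and 1313 against 710 genes, and the part of depth in this difference was not tested.

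Within the Malat1-rich cells globin share and the breadth of the RNA ran opposite ways. Spearman's rho over the 26 cells was -0.884 between globin share and genes detected and -0.831 between globin share and summed Gata1 and Klf1 UMIs. These cells share 1 library, both measures move with depth and a globin UMI displaces other UMIs, so the values describe a gradient among cells and carry no test. Among the 3 sets of deep cells, whose depth the 3000 UMI limit bounds from below, median globin UMIs lay between 3744.5 in the mixed-marker and 4183 in the Malat1-poor cells.

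The balance of the 4 globins also differed between the sets. β globin, Hbb-bs plus Hbb-bt, made up a median of 59.1% of the 4 globins' UMIs per cell in Malat1-rich cells (54.6 to 65.2%) and 65.9% in Malat1-poor cells (58.4 to 72.8%), with overlapping ranges. Within β globin, Hbb-bt took a median of 15.5% in Malat1-rich cells (8.41 to 26.3%) and 8.57% in Malat1-poor cells (4.27 to 14.5%). The middle 50% of cells did not overlap for Hbb-bt, at 11.7 to 19.3% and 7.56 to 10.1%. In summed UMIs, Hba-a1, Hba-a2, Hbb-bs and Hbb-bt made up 26.1, 15.3, 48.5 and 10.1% of the globin in Malat1-rich cells. In Malat1-poor cells Hba-a2, Hbb-bs and Hbb-bt made up 14.6, 59.4 and 5.96%, close to the 14.7, 58.4 and 6.50% of the low-depth cells of NRAS.MYC.ND, in which Hba-a1 made up 20.4%.

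The globin UMIs of barcodes outside the rule had a make-up close to that of the low-depth cells of their own library. In NRAS.MYC.ND these other cells had 20.9, 14.7, 56.7 and 7.73% of the same genes in the same order. In AKT1.MYC the low-depth cells had 18.5, 12.1, 61.5 and 7.87% and the other cells 18.8, 12.1, 61.7 and 7.39%. The β share of summed globin was 69.4% (68.9 to 69.9%) in AKT1.MYC low-depth cells and 64.9% in those of NRAS.MYC.ND, while the other cells of the 2 libraries stood at 69.1 and 64.5%. Barcodes just under the rule, with 5 to 20% globin, hold a large part of the latter UMIs, 10075 for AKT1.MYC and 42038 for NRAS.MYC.ND. Without them 5946 and 24108 UMIs were left, with β shares of 72.3% (71.1 to 73.4%) and 66.7% (66.1 to 67.3%), so a gap in the same direction was present among cells of under 5% globin. Whether free globin RNA takes part in this gap was not tested. The embryonic globins Hba-x, Hbb-y, Hbb-bh0, Hbb-bh1 and Hbb-bh2 had 0 UMIs in the erythroid cells, and Hbq1b, a θ globin gene, had 118 UMIs in those of NRAS.MYC.ND and 3 in those of AKT1.MYC.

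**Figure D4:**
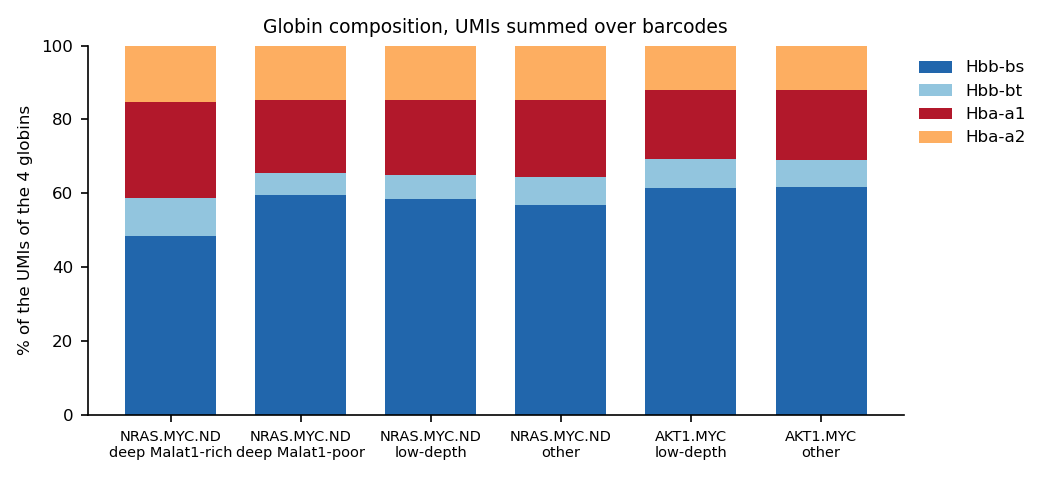
Bars give the share of each globin in the summed UMIs of the 4 globins (y axis, %, from 0) for each cell group (x axis). Hbb-bt makes up 10.1% in the Malat1-rich cells and between 5.96 and 7.87% in the Malat1-poor, low-depth and other cells.

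Against the low-depth cells of the same library, most haem and membrane genes were called higher in the pooled deep cells, but the haem list as a sum was not higher. Of 3992 measured genes 20.7% were called higher in deep cells and 9.34% lower. The haem list had 9 of 11 genes called higher (7 clear of counting error) and 1 lower, with a median 1.13 above that of all genes on the log2 scale. The gene called lower was Alas2, the most abundant of the list, at a log2 ratio of -2.07, and the sum of the list was lower in deep cells, at 13956 against 22498 CPM. The membrane list had 11 of 18 higher (10 clear) and 1 lower, with a median 1.20 above. Terminal maturation genes had 3 of 17 called higher and 6 lower, with a median 1.03 below. These are values of the pooled deep cells, and the sets within them differed. The haem list stood at 17753 CPM in Malat1-rich, 31850 in Malat1-poor and 6598 in mixed-marker cells. Terminal maturation genes summed to 19824, 74839 and 9896 CPM, against 48040 in low-depth cells. Both sums were thus above those of low-depth cells in the Malat1-poor set and below them in the other sets. The 12 mixed-marker cells held 111556 of the 254441 non-globin UMIs of deep cells. The genes named by rule as highest in deep cells were the histone gene Hist1h2ap at a log2 ratio of 5.01, Mki67 at 4.86, Ccnd3 at 4.60, Alad at 4.57, H2afx at 4.51, Ubac1 at 4.37, Car1 at 4.30 and Nxpe2 at 4.15. Histones, the proliferation marker Mki67 and the cyclin Ccnd3 are cell cycle genes, and Alad is the second enzyme of haem synthesis.

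The 8 genes named as lowest in deep cells were hepatocyte genes, among them Cp at a log2 ratio of -3.61, Ttr at -3.54, Apom at -3.51 and Alb at -3.47. Summed hepatocyte markers stood at 42235 CPM in the low-depth cells of NRAS.MYC.ND, 3.65 times the level of the other kept cells, at 21014 in Malat1-poor cells and at 3021 in Malat1-rich cells. In UMIs per barcode they were 9.9, 12.6 and 14.3, and at least 3 of the 10 markers were seen in 130 of 136 low-depth cells. The median number of Alb UMIs was 3 in cells of 500 to 1000 UMIs, 3 from 1000 to 3000 and 3 from 3000 to 7000, while mean Alas2 UMIs were 2.59, 5.70 and 11.2. In cells of 7000 UMIs and more the median was 6 Alb UMIs, and the mixed-marker cells held 29.3 hepatocyte UMIs per barcode. Up to 7000 UMIs a near constant number of Alb UMIs per barcode made up a larger share of the shallower cells, and its part in the ratios of deep to low-depth cells was not tested for genes that hepatocytes also express. Macrophage markers were at 1462 CPM in Malat1-rich cells, 0.0625 times the other cells, and at 8190 in the low-depth cells, with Adgre1, Csf1r and Clec4f at 0. The Malat1-rich level was taken after the mixed-marker cells had been set apart, in part by genes of macrophages that take up red cells. Those mixed-marker cells stood at 18152 CPM.

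Low-depth cells are the one erythroid group present in both models. Per non-globin UMI, genes of the erythroid programme were lower in AKT1.MYC than in NRAS.MYC.ND: 33 of 40 measured genes of the 6 lists were called lower (29 clear of counting error) and 1 higher, with a median of -1.96, whereas over all 1149 genes 19.7% were called lower and 36% higher, with a median of 0.67. The median of the lists was thus 2.63 below that of all genes on this scale. Terminal maturation genes had 13 of 13 called lower (12 clear), haem genes 5 of 5 (3 clear), membrane genes 5 of 6 and redox genes 6 of 8. Hypoxia and glycolysis genes went the other way, with 4 of 7 called higher. Their sum differed in the same direction outside the erythroid cells. It was 5170 CPM in the low-depth and 6384 in the other cells of AKT1.MYC, against 2353 and 4280 in NRAS.MYC.ND.

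The direction of single erythroid genes depended on what they were set against. Per 1000 globin UMIs, 85.1% of all 1149 genes were called higher in AKT1.MYC and 2.79% lower, and of the 40 erythroid genes 13 were called higher (9 clear) and 5 lower (3 clear). Alas2 stood at 4571 CPM in AKT1.MYC against 17603 in NRAS.MYC.ND, a log2 ratio of -1.95 (-2.18 to -1.71), but at 0.51 (0.27 to 0.74) per globin UMI. Fech, the last enzyme of haem synthesis, went from -1.71 to 0.74, Prdx2 from -1.21 to 1.24 and Slc4a1 from -2.37 to 0.078. For these genes no direction between the models holds on both scales.

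Several genes were lower in AKT1.MYC on both scales. Median depths of the low-depth cells were close, at 959 and 981.5 UMIs. Car2 stood at 200 CPM in AKT1.MYC against 3169 in NRAS.MYC.ND, a log2 ratio of -3.99 (-5.16 to -3.01), and -1.54 (-2.71 to -0.55) per globin UMI. Ncoa4, the receptor that hands ferritin over for breakdown, stood at 355 and 3640 CPM, at -3.36 and -0.91 (-1.76 to -0.15). Rsad2, an interferon-induced antiviral enzyme, stood at 355 and 4456 CPM, at -3.65 and -1.20 (-2.04 to -0.45). Fth1, the ferritin heavy chain, was the erythroid list gene called higher, at 17241 and 8284 CPM, a log2 ratio of 1.06 (0.85 to 1.26). It is abundant in many cell types and stood at 12823 and 7826 CPM in the other cells of AKT1.MYC and NRAS.MYC.ND.

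The RNA other than globin differed in its cell type markers between these low-depth groups. Macrophage markers stood at 14068 CPM in AKT1.MYC low-depth cells, 1.66 times its other cells, with at least 3 of 10 markers in 66 of 75 barcodes, and at 8190 CPM in NRAS.MYC.ND, 0.35 times its other cells. Markers of duct-like epithelium stood at 20481 CPM, 0.83 times the other cells, with at least 3 of 8 markers in 61 of 75 barcodes of AKT1.MYC, and at 3012 CPM in NRAS.MYC.ND. Hepatocyte markers were at 3306 and 42235 CPM. The low-depth barcodes of AKT1.MYC thus carried markers of several cell types at levels near or above those of the rest of their library, in a median of 606 non-globin UMIs against 205 in NRAS.MYC.ND and beside 348 globin UMIs against 802. The part of this RNA in the differences between the models was not tested.

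**Figure D5:**
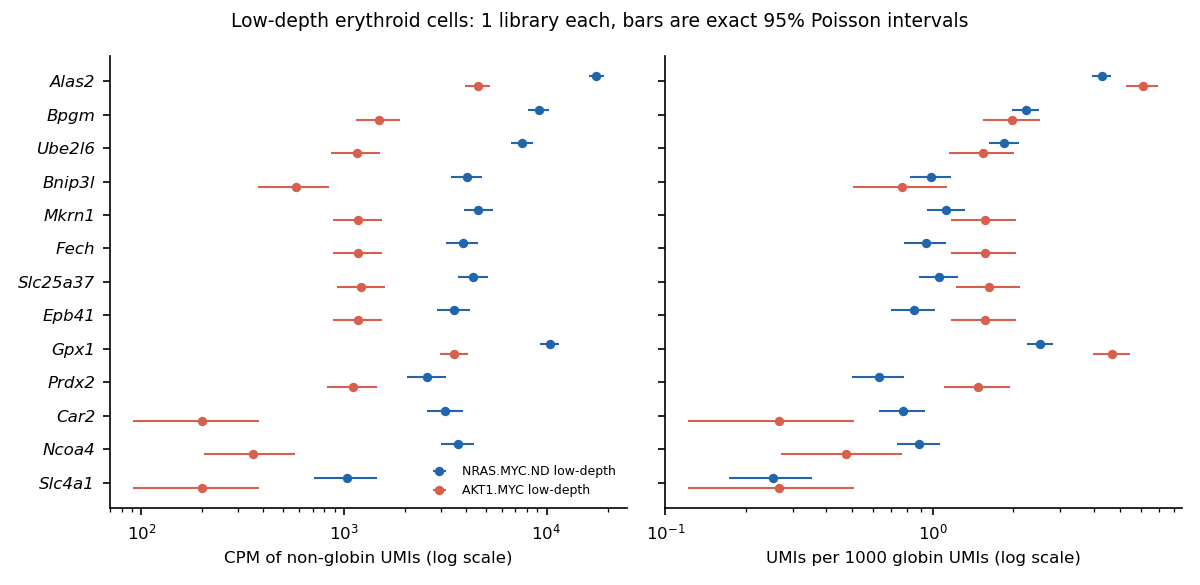
Points give the level of named erythroid genes (rows) in the low-depth cells of each library as CPM of non-globin UMIs and as UMIs per 1000 globin UMIs (x axes, log scales), with bars for exact 95% Poisson intervals of the counts. Every gene shown lies lower in AKT1.MYC on the first scale, while on the second Alas2, Prdx2 and Fech lie higher and Car2 and Ncoa4 lower.

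Hypoxia and glycolysis genes had 9 of 16 called lower (8 clear of counting error) and 0 higher in deep erythroid cells than in the other cells of NRAS.MYC.ND, and interferon response genes 10 of 18 lower and 1 higher, beside 11.5% of all genes called higher and 15.7% lower. These counts are of the pooled deep cells. The interferon list summed to 4759 CPM in Malat1-rich, 7772 in mixed-marker and 10988 in Malat1-poor cells. In the other cells the sum was 10189 CPM, so the Malat1-poor set did not lie below them. Isg15, a ubiquitin-like interferon-induced protein, stood at 1900 CPM in Malat1-rich, 7241 in Malat1-poor and 125 in other cells, so it was higher in the erythroid cells than in the rest. Among 13 measured early progenitor genes 5 were called higher and 4 lower in deep cells than in other cells, and Epor, the erythropoietin receptor, had 10 UMIs in the Malat1-rich cells. Immune signals that have been described in erythroid cells of tumours were near the detection limit: in Malat1-rich cells Cd274, which encodes PD-L1, had 2 UMIs, Artn, which encodes artemin, 2, Tgfb1 13 and Arg1 0. Of 9 measured genes of this list, 0 were called higher and 1 lower in all 71 deep cells than in the other cells, near the shares over all genes, and the 12 mixed-marker cells held 117 of the 167 UMIs of the list.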

How the data were processed

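The data were 2 single-cell RNA libraries of mouse liver tumour tissue, 1 per model, made with 10x Genomics 3′ v2 chemistry. The authors deposited filtered matrices of UMI counts for 55450 genes. The submitters' processing notes name Cell Ranger 6.1.2 and mm10, and the files' own headers name 6.1.1, with an annotation release not given in the sources used here. Cells, groups and gene lists were chosen with earlier results of these data known.

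Barcodes with at most 20% of UMIs from 37 mitochondrial genes were kept, and erythroid cells were those with at least 20% of UMIs from the 4 globins. UMIs were summed per group and scaled to counts per 1000000 (CPM) non-globin UMIs. Added scales were all UMIs, 1000 globin UMIs and median of ratios. Ratios carry exact conditional binomial 95% intervals and shares exact Clopper-Pearson intervals; both cover counting error only, and with 1 library per model there was no test. A count of 0 was put at 3. Genes outside the lists were named by rule: up to 8 per direction between deep and low-depth cells with at least 50 CPM, at least 30 UMIs, an interval leaving out 2-fold and a level at least 0.5 times that of the other cells; and the 15 largest ratios against other cells with at least 200 CPM. These rules asked for both libraries and used NRAS.MYC.ND alone, since AKT1.MYC had 0 deep cells. Of 307 list genes 306 were in the files. The split by Malat1 and by mixed markers, the globin scale and the comparison of Malat1-rich with Malat1-poor cells were added after seeing the data. Rsad2 was named after its values were seen. Ratios were tested on simulated counts. The alternatives were other globin, depth, mitochondrial and count limits, other scales and removal of doublet scores. Tools were Python 3.11.15, numpy 2.4.6, scipy 1.17.1, pandas 2.3.3, scanpy 1.11.5 and matplotlib 3.10.9.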

Additional observations from a re-analysis of the deposited data

Results flagged for a closer look

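Outside the rule, 5 barcodes of NRAS.MYC.ND with under 20% globin had UMIs of at least 4 of 11 erythroid genes that the rule did not use, against 1 in AKT1.MYC; they enter no comparison of erythroid cells. One held 19060 UMIs with 8.16% globin, all 11 genes and 149 G2 and M UMIs. Another held 14618 UMIs with 11.4% globin, 9 of the genes and 100 such UMIs. The deepest of them held 40919 UMIs with 0.0538% globin, UMIs of 8 of the genes, among them Klf1, Gata1, Car2, Tfrc, Epor, Hemgn and Rhag, and 206 G2 and M UMIs, so that an erythroid profile was seen nearly without globin.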

How the results depend on the processing

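No paired analysis was possible because each model has 1 library, and no replicate could be left out. The planned comparison of precursors between the libraries and its alternatives were not run, since AKT1.MYC had 0 erythroid cells of at least 3000 UMIs. The deep share of NRAS.MYC.ND erythroid cells moved from 34.3% to 44.0% with a limit of 2000 UMIs and 21.3% with 5000. With at least 1000 UMIs and 250 genes per barcode the erythroid share became 1.28% for NRAS.MYC.ND and 0.473% for AKT1.MYC, and with 10 or 40% globin it became 1.01 or 0.320% in AKT1.MYC. With 40% globin the β share became 62.9% in deep and 70.6% in AKT1.MYC low-depth cells, and Hbb-bt 11.7% of β globin in deep cells, from 13.1%. In deep cells the G2 and M share was 31.3% and the S share 17.2%; they became 52.1 and 35.2% without thinning, and the S share 7.81% with at least 3 genes. The β share of other cells became 66.7% for NRAS.MYC.ND and 72.3% for AKT1.MYC without barcodes of 5% globin or more, an alternative chosen after seeing the data. Macrophage markers in deep cells fell to 7131 CPM from 9177 without the highest Scrublet scores.

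Counts of called genes moved most. For AKT1.MYC over NRAS.MYC.ND low-depth cells, 414 higher and 226 lower became 867 and 80 per all UMIs, 978 and 32 per globin UMI, 131 and 105 at 30 UMIs and 915 and 693 at 1 UMI. For deep over low-depth cells, 826 higher and 373 lower became 2289 and 106 per all UMIs, 524 and 128 at 30 UMIs, 1346 higher by median of ratios and 1906 lower at 1 UMI. For Malat1-rich over Malat1-poor cells, 582 higher and 256 lower became 1914 and 16 per all UMIs, 934 and 163 by median of ratios, 2045 and 1 per globin UMI, 334 and 129 at 30 UMIs, and 1698 lower at 1 UMI. A change of scale shifts every gene that keeps a ratio by 1 constant, and a higher UMI limit tests fewer genes. For the other changes the cause was not tested.

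Over all list and named genes, 18 ratios turned per globin UMI and 7 per all UMIs between models, 17 and 7 between Malat1-rich and Malat1-poor cells, and 1 per all UMIs and 2 without mixed-marker cells between deep and low-depth cells. Among genes named in the text or figures these were, between models per globin UMI, Alas2 0.51, Epb41 0.89, Fech 0.74, Gpx1 0.89, Mkrn1 0.48, Prdx2 1.24 (0.33 per all UMIs) and Slc4a1 0.078, and between Malat1-rich and Malat1-poor cells per globin UMI, Alas2 0.26, Bnip3l 0.44, Mkrn1 0.81, Ncoa4 0.21, Ube2l6 0.17, Isg15 1.08 (0.19 per all UMIs) and Rsad2 0.77. Depth limits the low-depth cells most, with medians of 205 and 606 non-globin UMIs.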

Other observations

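The barcodes just under the rule differed between the libraries. With 5 to 20% globin, NRAS.MYC.ND had 14 barcodes with a median of 10748.5 UMIs, 11 of them with at least 2 of the 11 erythroid genes outside the rule. AKT1.MYC had 45 with a median of 660 UMIs, 3 of them with at least 2 of these genes, 43 with at least 3 macrophage genes and 37 with at least 3 genes of duct-like epithelium.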
